A study of Homo sapiens with 18 samples.

Results

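The 10 genes described here are immediate-early genes outside the AP-1 family: the zinc finger factors EGR1, EGR3, KLF2, KLF4 and KLF6, the orphan nuclear receptors NR4A1 and NR4A2, the IER family members IER2 and IER5, and ZFP36, an RNA-binding protein of mRNA decay. They were taken by gene symbol from the probe annotation, which gave them 18 of 31332 features with 1 gene. All 10 were measured, out of 18334 genes. They were chosen by name, and no filter on low values was applied.

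The cells were K562, an established chronic myelogenous leukaemia line, in 4 states: untreated, TNFalpha-treated, heteronemin-treated and cotreated with both. Heteronemin, a sponge sesterterpenoid, was given at 6 µM at 0 h with DMSO as its vehicle control, and TNFalpha, an inflammatory cytokine, at 10 ng/mL at 2 h with water as its control. All cells were harvested at 6 h, so early induction within the first hours was not read. Each of 3 comparisons (TNFalpha against untreated, heteronemin against untreated, cotreated against TNFalpha-treated) had 3 biological replicates, each hybridised on a pair of arrays with exchanged dyes that count as 1 replicate. The first and second comparison share the untreated state as control, and the TNFalpha-treated state is measured in the first and is the control of the third.

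Immediate-early genes are switched on within minutes of a stimulus without new protein synthesis, mostly through factors that already sit on their promoters, such as SRF with its ternary complex partners. EGR and KLF proteins bind GC-rich DNA through zinc fingers, and NR4A receptors act without a known ligand. ZFP36 binds AU-rich elements in mRNAs of cytokines and of other immediate-early genes and speeds their decay, so it acts as feedback. In blood cells KLF2 is linked to quiescence, and NR4A1 and EGR factors to activation.

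The values are log2 ratios of treated over control RNA, without levels. Their direction was taken from the array titles. Dye-exchanged partners gave EGR1 and ZFP36 equal signs throughout, so partners are turned alike, but equal signs cannot tell treated over control from the reverse. Ratios without levels could not check the labelled cell type. Of 10 measured K562 markers 0 were called in any comparison, with medians of −0.027 under heteronemin and −0.043 in cotreated cells. Of all genes 4.87% and 6.55% were called in these 2 comparisons. Without replicate 1 in all comparisons 3 of the 10 fell in each, where 13.9% and 18.5% of all genes were called in either direction. Bulk RNA cannot tell fewer cells of a kind from less RNA per cell. Replicate 1 stood apart: under TNFalpha the chemokine gene CXCL1 was at −0.038 there and at 6.38 and 6.49 in replicates 2 and 3, while NFKBIA, the NF-kB inhibitor, was at 2.48, 2.99 and 3.40. The SD over all genes in replicate 1 was 0.329 under heteronemin and 0.384 in cotreated cells, and the other replicates of these comparisons ran from 0.163 to 0.215. Values without replicate 1 are therefore given beside several of those that rest on it, though not beside every value.

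These promoters are shown because EGR1, KLF6 and ZFP36 are the members whose ratios the results turn on. Each line gives the 250 bases before the RefSeq start site, 5′ to 3′ on the gene's strand (GRCh38.p14). Capitals mark CArG boxes, the sites of SRF, in EGR1 (chr5:138465229-138465478, plus strand). In KLF6 (chr10:3785210-3785459, minus strand) they mark an EGR site and GC boxes, and in ZFP36 (chr19:39406597-39406846, plus strand) GC boxes.
EGR1: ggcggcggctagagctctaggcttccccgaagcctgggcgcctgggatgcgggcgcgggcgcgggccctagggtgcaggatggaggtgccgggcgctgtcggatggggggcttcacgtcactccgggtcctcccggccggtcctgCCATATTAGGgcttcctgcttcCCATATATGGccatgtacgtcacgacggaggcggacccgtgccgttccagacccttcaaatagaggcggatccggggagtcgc
KLF6: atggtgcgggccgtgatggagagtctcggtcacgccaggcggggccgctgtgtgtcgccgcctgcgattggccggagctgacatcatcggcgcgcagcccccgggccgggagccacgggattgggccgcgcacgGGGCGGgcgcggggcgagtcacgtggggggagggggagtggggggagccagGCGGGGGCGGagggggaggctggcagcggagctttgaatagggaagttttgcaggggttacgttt
ZFP36: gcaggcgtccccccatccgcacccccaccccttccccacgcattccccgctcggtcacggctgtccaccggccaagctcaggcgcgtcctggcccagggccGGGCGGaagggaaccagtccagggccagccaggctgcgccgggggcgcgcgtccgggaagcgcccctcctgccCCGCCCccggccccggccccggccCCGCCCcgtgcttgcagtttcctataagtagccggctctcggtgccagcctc

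RefSeq windows of 300 bases, 250 before to 50 after the start, were matched for 8 of the 10 members; EGR3 and NR4A2 had no entry. Motifs were searched on both strands. EGR1 alone of the 8 held CArG boxes, 2 of them, starting at positions −105 and −83 from the start site, and 1.29% of 27305 windows hold at least 1. The EGR site GCGNGGGCG was in the windows of EGR1, KLF2, KLF4 and KLF6, against 9.28% of all windows, and overlaps the GC box GGGCGG in KLF6. The GC box was in 5 of the 8, against 44.6% of all. The core of the cAMP response element, TGACG, was in 3 (EGR1, KLF4 and IER2), against 25.0%. None of the 8 windows held the full element TGACGTCA (1.98% of all), the AP-1 site TGANTCA (7.76%), a kB site (10.8%), the ATF4 composite site TGATGNAA (3.67%) or the TATA box TATAAA (12.0%). These are matches of letters in a short window and say nothing of binding.

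KLF6, a growth-restraining member of the KLF family first named as a core promoter binding protein, was the 1 member that passed the test. Against untreated cells, heteronemin raised it in every replicate, with log2 ratios of 0.87, 1.47 and 1.32 in replicates 1 to 3. The mean of 1.22 ± 0.31 (SD, n = 3) is a 2.33-fold rise, with a 95% interval of 0.83 to 1.61 on the log2 scale (limma, adjusted p = 0.00684). In cotreated cells the ratios over TNFalpha-treated cells were 0.78, 1.00 and 0.92, a mean of 0.90 ± 0.11 or 1.87-fold (interval 0.51 to 1.29, adjusted p = 0.0176). Replicate 1 was the lowest in both comparisons, and no replicate was near 0.

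Thus 1 of 10 members was called under heteronemin, against 4.87% of all genes (2.29% higher and 2.58% lower), and 1 of 10 in cotreated cells, against 6.55% of all genes (3.39% higher and 3.15% lower). The members' median log2 ratio was 0.035 under heteronemin and 0.069 in cotreated cells, against 0.0083 and 0.0081 over all genes. The KLF6 calls depend on how the spread is estimated. With each comparison fitted on its own, adjusted p was 0.0979 under heteronemin and 0.154 in cotreated cells, and with a trended and robust prior 0.0788 and 0.105. Without replicate 2 of a comparison adjusted p was 0.0643 and 0.106, and without replicate 3 it was 0.0419 and 0.0753. Both calls were lost without replicate 2 in all comparisons (adjusted p = 0.217 and 0.242) and without replicate 3 in all comparisons (adjusted p = 0.168 and 0.220), while the means stayed between 0.85 and 1.17.

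KLF6 had 4 features, which did not move alike. Features 9355 and 20049 were at 1.88 ± 0.52 and 1.79 ± 0.42 under heteronemin and at 1.46 ± 0.06 and 1.31 ± 0.05 in cotreated cells. Feature 1643 was at 1.01 ± 0.25 and 0.69 ± 0.31. Tested singly over all 31332 features, these 3 passed as higher in both comparisons, with adjusted p between 0.00625 and 0.0232, where 2.15% and 3.3% of all features did. Feature 25002 stayed at 0.19 ± 0.13 and 0.15 ± 0.21 (adjusted p = 0.322 and 0.401), so the mean over features lies below the 3 called ones. Which KLF6 transcripts each feature reads was not tested.

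**Figure D1:**
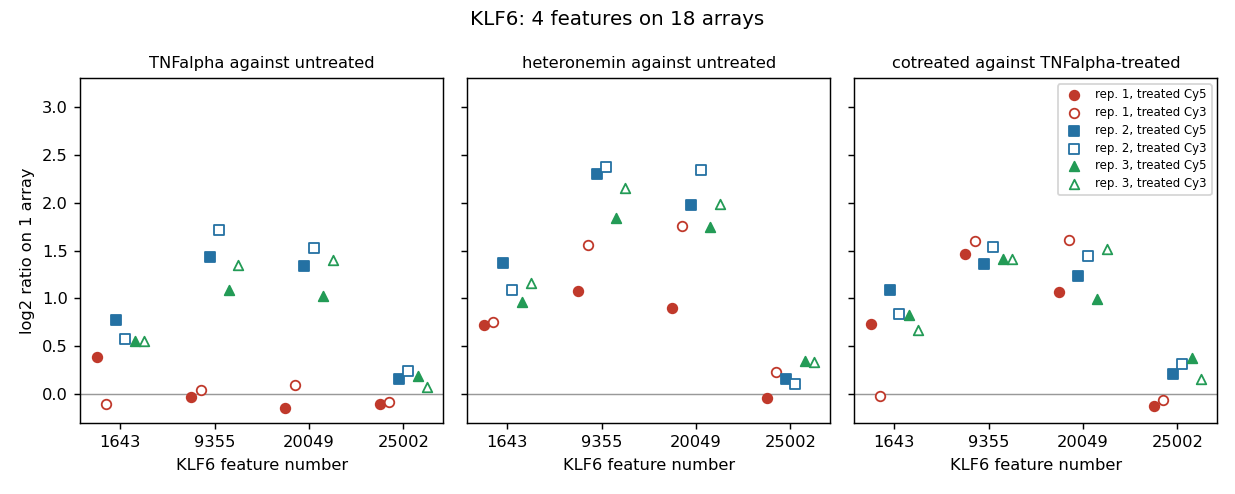
Log2 ratio (y) of each KLF6 feature (x) on each of the 18 arrays, with 1 panel per comparison. Shapes and colours mark the biological replicate, filled symbols arrays with treated RNA in Cy5 and open symbols treated RNA in Cy3; features 9355 and 20049 lie highest in each panel except on 1 array of replicate 1 of TNFalpha against untreated, and feature 25002 lies near 0.

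Under TNFalpha the KLF6 ratios were 0.0084, 0.97 and 0.78 in replicates 1 to 3, a mean of 0.59 ± 0.51 that did not pass (interval 0.20 to 0.98, adjusted p = 1.00). Replicate 1 was at 0 here and the other replicates were well above it, as for CXCL1. Without replicate 1 in all comparisons KLF6 was at 0.87 and was called higher (adjusted p = 0.000803), in a setting where 0.322% of all genes were. In replicate 1 KLF6 was thus near 0 under TNFalpha and at 0.87 under heteronemin.

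The heteronemin effect on KLF6 was lower with TNFalpha than without it by 0.087, 0.46 and 0.40 in replicates 1 to 3. The mean difference of −0.32 ± 0.20 did not pass (interval −0.87 to 0.23, adjusted p = 1.00). Of the 10 members limma called 0 for this difference, as for 0% of all genes, and 2.59% of all genes had an unadjusted p under 0.05. For EGR1 the difference was above 0 in all 3 replicates, at 0.082, 0.54 and 0.52 (mean 0.38 ± 0.26), and did not pass (adjusted p = 1.00). With the replicate block over the 2 heteronemin comparisons alone, the fit that uses this pairing, 0% of all genes were again called, and adjusted p was 0.806 for EGR1 and for KLF6. Adding the TNFalpha and the cotreated ratio within a replicate number gives cotreated against untreated cells, which no array compared directly. These sums were 0.79, 1.97 and 1.70 for KLF6, near its heteronemin ratio in replicate 1 and above it in the other replicates.

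**Figure D2:**
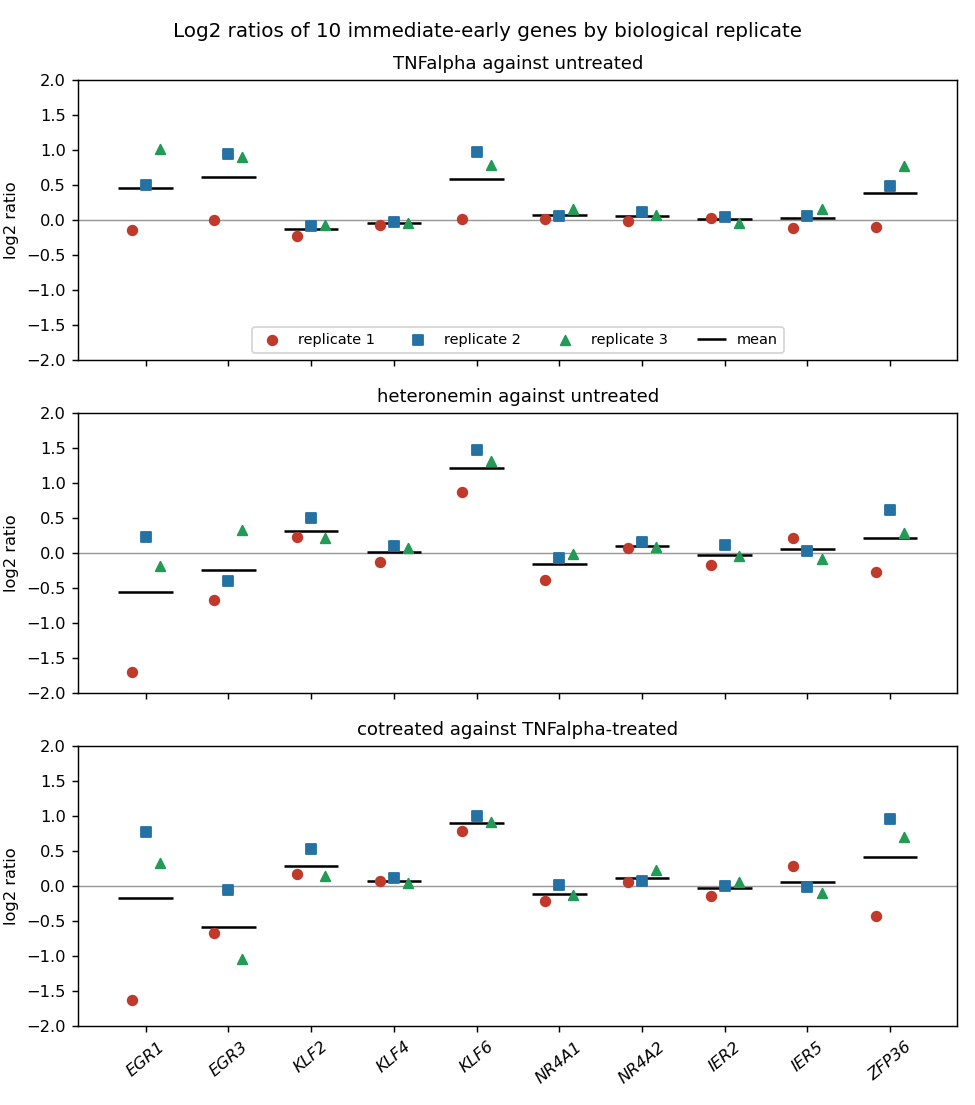
Log2 ratio (y) of the 10 genes (x) in each biological replicate, with 1 panel per comparison; symbols mark replicates and black bars the mean of 3. KLF6 is above 0.7 in every replicate of both heteronemin comparisons, while EGR1 and ZFP36 are below 0 in replicate 1 of every panel.

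EGR1, the prototype of the EGR zinc finger factors and a standard readout of MAPK signalling, varied more between replicates than any other member in the heteronemin comparisons. Under TNFalpha it was at −0.14, 0.50 and 1.00, a mean of 0.45 ± 0.57 (SD, n = 3; adjusted p = 1.00). Under heteronemin it was at −1.70, 0.23 and −0.18 (mean −0.55 ± 1.02, adjusted p = 0.594), and in cotreated cells at −1.62, 0.77 and 0.33 (mean −0.17 ± 1.27, adjusted p = 0.864). Replicate 1 was thus low in both heteronemin comparisons and the others near or above 0, and the groups of values straddle 0.

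The low values of replicate 1 were present on both of its arrays, which read −1.51 and −1.89 under heteronemin and −1.47 and −1.76 in cotreated cells. In both comparisons the immediate-early genes MYC (−1.60 and −2.04) and DUSP2, a MAPK phosphatase (−1.64 and −1.94), were also low in replicate 1 and lay between −0.036 and 0.173 in replicates 2 and 3. They were named after their values were seen, and other early genes went the other way. In replicate 1 JUN was at 3.97 and 4.66 and IER5L at 4.31 and 4.54. The 30 further immediate-early genes listed below had replicate 1 medians of −0.044 and −0.21. Without replicate 1 in all comparisons EGR1 was at 0.022 under heteronemin and at 0.55 in cotreated cells, where it was called higher (adjusted p = 0.0399, in a setting where 10.4% of all genes were). The direction of the EGR1 mean in cotreated cells thus changes with replicate 1, and it also changes to 0.13 when arrays are scaled to each other.

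EGR3, a factor that calcineurin signals induce in lymphocytes, was at −0.0012, 0.94 and 0.90 under TNFalpha (mean 0.61 ± 0.53, adjusted p = 1.00). It was at −0.67, −0.40 and 0.32 under heteronemin (mean −0.25 ± 0.51, adjusted p = 0.650). In cotreated cells all 3 replicates were below 0, at −0.67, −0.054 and −1.04 (mean −0.59 ± 0.50, adjusted p = 0.220), as for 19.6% of all genes. Its single feature was imprecise: the 2 arrays of a pair differed by a median of 0.64 over 9 pairs, and 1.24% of all features had a larger gap.

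ZFP36, the decay factor also called tristetraprolin, also split by replicate. It was at −0.099, 0.49 and 0.77 under TNFalpha (mean 0.39 ± 0.44, adjusted p = 1.00) and at −0.27, 0.62 and 0.28 under heteronemin (mean 0.21 ± 0.45, adjusted p = 0.727). In cotreated cells it was at −0.42, 0.96 and 0.70 (mean 0.41 ± 0.73, adjusted p = 0.426). Replicate 1 was below 0 and replicates 2 and 3 above it in all 3 comparisons.

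Without replicate 1 in all comparisons ZFP36 was at 0.45 under heteronemin (adjusted p = 0.0265) and at 0.83 in cotreated cells (adjusted p = 0.00193), called higher in both, where 7.17% and 10.4% of all genes were. Under TNFalpha it was then at 0.63 and did not pass (adjusted p = 0.0907). Summed to cotreated over untreated cells, replicates 1 to 3 were at −0.52, 1.45 and 1.47 for ZFP36 and at −1.76, 1.27 and 1.34 for EGR1. For both genes the 2 added ratios were above 0 in replicates 2 and 3 and below 0 in replicate 1. By arithmetic alone the sums then lie further from 0 than either ratio.

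**Figure D3:**
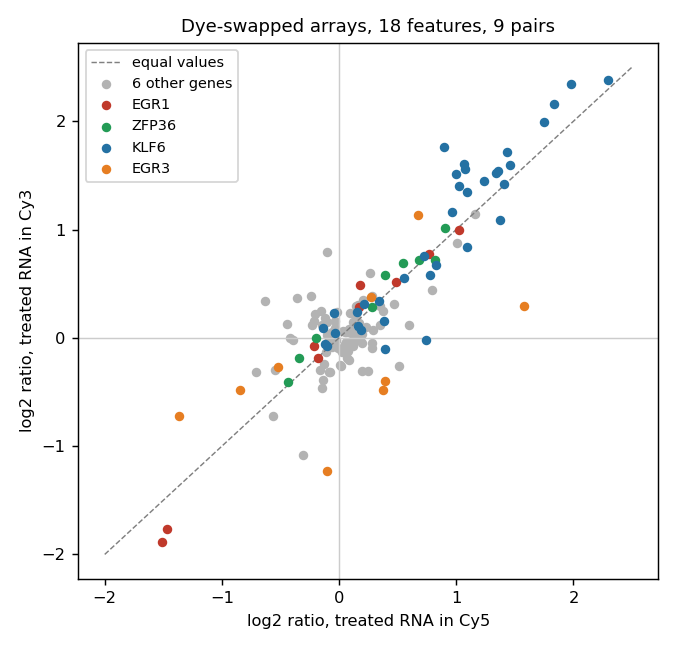
Log2 ratio of each of the 18 features on the array with treated RNA in Cy5 (x) against its dye-exchanged partner with treated RNA in Cy3 (y), for 9 pairs. EGR1 and ZFP36 lie near the line of equal values with the same sign in 9 of 9 pairs, while EGR3 scatters away from it.

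The agreement of dye-exchanged arrays differed between members. The EGR1 and ZFP36 features had median gaps of 0.110 and 0.113 and the same sign in 9 of 9 pairs, against a median gap of 0.157 over all features. For these genes the spread between biological replicates was therefore far wider than that between arrays of 1 replicate. The IER2 features had the same sign in only 1 and 4 of 9 pairs, and the KLF4 features in 5 and 4, so their ratios did not separate from 0 on single arrays.

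KLF2, a factor of quiescence in T cells and endothelium, was above 0 in all replicates of both heteronemin comparisons, as for 20.6% and 18.7% of all genes. These values average features that differed, as given below. It was at 0.23, 0.50 and 0.22 under heteronemin (mean 0.32 ± 0.16, interval 0.12 to 0.51, adjusted p = 0.0780). In cotreated cells it was at 0.18, 0.54 and 0.15 (mean 0.29 ± 0.22, interval 0.095 to 0.48, adjusted p = 0.0853). Without replicate 1 in all comparisons KLF2 was at 0.36 and 0.34. It was then among the 3 members called higher under heteronemin and the 4 in cotreated cells, where 7.17% and 10.4% of all genes were. Under TNFalpha it was below 0 in all 3, at −0.24, −0.088 and −0.080 (mean −0.13 ± 0.09, adjusted p = 1.00), as for 12.4% of all genes.

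Same-numbered replicates of the 2 heteronemin comparisons deviated together, and replicate 1 weighs on this, as given below. The fits with the replicate number as a block are therefore given here. With a replicate block over all comparisons KLF2 was called higher under heteronemin (adjusted p = 0.0294, among 2.77% of all genes) and in cotreated cells (adjusted p = 0.0312, among 4.04%). This block also fits the same replicate shifts to TNFalpha against untreated. Deviations in that comparison did not follow those of the heteronemin comparisons (correlations between −0.326 and 0.031). With a replicate block over the 2 heteronemin comparisons alone, a setting added after the data were seen, EGR1 was called lower under heteronemin (adjusted p = 0.00394) and ZFP36 higher in cotreated cells (adjusted p = 0.0147). That setting called 17.2% (8.18% higher) and 20.3% (10.1% higher) of all genes, and it sets aside the spread between replicates, which for EGR1 and ZFP36 spans 0. The 2 features of KLF2 differed: feature 38543 was at 0.45 ± 0.46 and 0.57 ± 0.50 in the heteronemin and cotreated comparisons, and feature 23311 at 0.18 ± 0.22 and 0.0067 ± 0.105. Under heteronemin they rose in different replicates, at 0.020, 0.94 and 0.39 for 38543 and at 0.43, 0.061 and 0.052 for 23311. Neither passed singly (limma, adjusted p = 0.289 and 0.278 under heteronemin, 0.142 and 0.971 in cotreated cells). Feature 23311 had the same sign in only 4 of 9 dye-exchanged pairs.

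KLF4, a pluripotency and differentiation factor, stayed within narrow bounds. Its means were −0.052 ± 0.026 under TNFalpha, 0.018 ± 0.123 under heteronemin and 0.074 ± 0.036 in cotreated cells (adjusted p = 1.00, 0.883 and 0.442). The 3 intervals together ran from −0.17 to 0.19 on the log2 scale.

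The nuclear receptors NR4A1 (Nur77) and NR4A2 (Nurr1), which respond to antigen receptor and cAMP signals, had small ratios. NR4A1 was at −0.38, −0.071 and −0.021 under heteronemin (mean −0.16 ± 0.19, adjusted p = 0.318), below 0 in all 3 as for 19.2% of all genes, and at −0.21, 0.019 and −0.13 in cotreated cells (mean −0.11 ± 0.12, adjusted p = 0.460). Feature 28177 carried this, at −0.29 ± 0.35 and −0.34 ± 0.27, while feature 42728 was at −0.021 ± 0.041 and 0.13 ± 0.11. Neither NR4A1 feature passed when tested singly (adjusted p between 0.191 and 0.878).

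NR4A2 was at 0.073, 0.15 and 0.083 under heteronemin (mean 0.10 ± 0.04, adjusted p = 0.314) and at 0.063, 0.075 and 0.24 in cotreated cells (mean 0.12 ± 0.10, adjusted p = 0.185). All 6 values were above 0 and small, and 20.6% and 18.7% of all genes were above 0 in all 3 replicates of these comparisons. In replicate 1 under heteronemin the 2 arrays read −0.24 and 0.39, and dye-exchanged partners agreed in sign in 6 of 9 pairs. Under TNFalpha NR4A1 and NR4A2 had means of 0.071 ± 0.079 and 0.057 ± 0.064 (adjusted p = 1.00 each), and NR4A1 was above 0 in all 3 replicates, as for 13.3% of all genes.

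IER2 and IER5, nuclear proteins induced by growth factors and, for IER5, by heat and radiation, lay near 0. IER2 had means of 0.0069 ± 0.048, −0.029 ± 0.141 and −0.026 ± 0.108 in the TNFalpha, heteronemin and cotreated comparisons (adjusted p = 1.00, 0.839 and 0.834). Its 3 intervals ran from −0.17 to 0.15. IER5 had means of 0.032 ± 0.140, 0.052 ± 0.156 and 0.063 ± 0.205 (adjusted p = 1.00, 0.798 and 0.709), with intervals from −0.17 to 0.26. For both genes the sign of the replicates was mixed in each comparison. The near-0 TNFalpha mean of IER5 averages unlike features. Feature 31448 was at 0.28, 0.084 and 0.31 in replicates 1 to 3 (mean 0.22 ± 0.12), above 0 on all 6 arrays, and did not pass (limma, adjusted p = 1.00; unadjusted p = 0.0038). Feature 28005 was at −0.51, 0.023 and 0.0044 (mean −0.16 ± 0.31).

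TNFalpha against untreated thus had 0 of 10 members called by limma, as for 0% of all genes, while 1.72% of all genes had an unadjusted p under 0.05. The highest means were those of EGR3, KLF6, EGR1 and ZFP36, in this order, and each of these 4 had replicate 1 between −0.14 and 0.0084 and both other replicates at 0.49 or above. Their intervals overlap, so neighbours in this order do not differ beyond their spread. The other 6 members had means between −0.13 and 0.071. Without replicate 1 in all comparisons EGR1 was at 0.75 (adjusted p = 0.194) and EGR3 at 0.92 (adjusted p = 0.411), so KLF6 was the 1 member called in that setting.

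Related genes were taken from lists chosen with earlier results of these data known. Their counts are to be read against 4.87% of all genes called under heteronemin (2.29% higher, 2.58% lower) and 6.55% in cotreated cells (3.39% higher, 3.15% lower). Without replicate 1 in all comparisons, a setting added for these lists after the data were seen, the shares were 0.338% under TNFalpha, 13.9% under heteronemin and 18.5% in cotreated cells. Each call of a listed gene named below passed there too, in the same direction. Of the 6 measured members of the EGR family and its NAB corepressors 0 rose and 2 fell under heteronemin, with a median of −0.38. That median was −0.66, −0.30 and −0.22 in replicates 1 to 3, and −0.14 without replicate 1 in all comparisons. WT1, an EGR-like zinc finger factor of leukaemic cells, fell to −0.41 ± 0.06 (limma, adjusted p = 0.0216), and NAB1, which represses EGR targets, to −0.38 ± 0.23 (adjusted p = 0.0405). The NAB1 replicates were at −0.65, −0.23 and −0.26, and without replicate 1 the mean was −0.25 (adjusted p = 0.0276). In cotreated cells WT1 fell to −0.49 ± 0.15 (adjusted p = 0.00848), and NAB1 was at −0.32 ± 0.10 (adjusted p = 0.0633). Under heteronemin EGR4 was at −1.15, 0.029 and 0.0084 in replicates 1 to 3, again with the first of these low.

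Of the 17 KLF genes 1 rose under heteronemin and 2 in cotreated cells, none fell, and the medians were 0.032 and 0.073. With replicate 1 left out throughout, 5 rose and 2 fell under heteronemin, and 4 rose and 1 fell in cotreated cells. KLF9, a stress and hormone responsive repressor, was the second riser in cotreated cells, with 0.58, 1.95 and 1.33 in replicates 1 to 3 (mean 1.29 ± 0.69, adjusted p = 0.0264). Under heteronemin it was at 0.36, 1.70 and 1.31 (mean 1.12 ± 0.69, adjusted p = 0.0539), with replicate 1 lowest in both. Under TNFalpha KLF9 was at −0.0079 ± 0.0992, so KLF6 and KLF9 had unlike TNFalpha values in replicates 2 and 3. KLF1, the erythroid member of the family, was at −0.13 ± 0.13 and −0.094 ± 0.238 in the heteronemin and cotreated comparisons and did not pass.

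**Figure D4:**
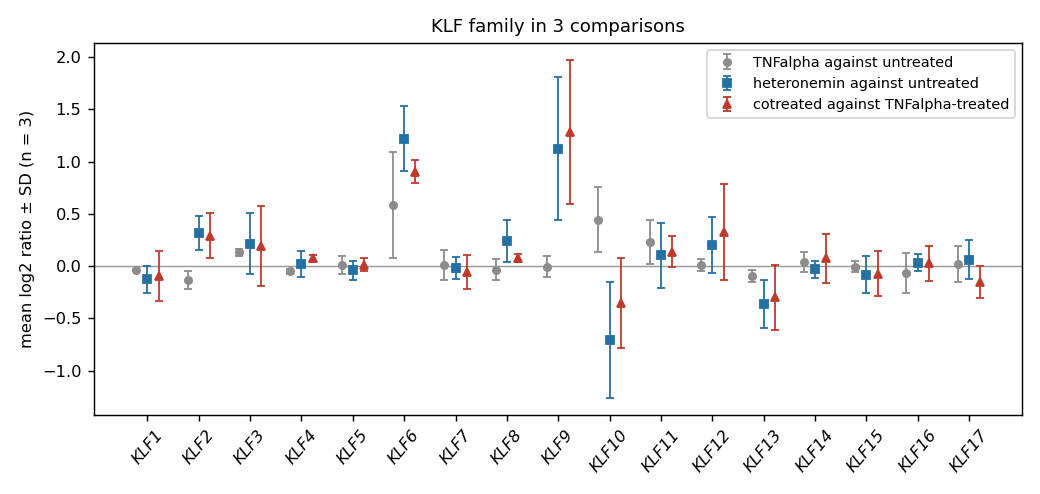
Mean log2 ratio (y, ± SD, n = 3) of the 17 KLF genes (x) in the 3 comparisons. KLF6 and KLF9 lie highest under heteronemin and in cotreated cells, and of these KLF6 alone has a mean well above 0 under TNFalpha, with a wide SD.

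The third NR4A receptor, NR4A3, was at 0.082 ± 0.026, −0.058 ± 0.133 and 0.017 ± 0.046 in the TNFalpha, heteronemin and cotreated comparisons, and 0 of 6 NR4A and RXR genes was called in any of them. Of the other IER genes, IER3, an NF-kB target that limits cell death, was at 1.22, 3.60 and 3.40 under TNFalpha (mean 2.74 ± 1.32, adjusted p = 0.221). It was below 0 in every replicate of cotreated over TNFalpha-treated cells, as for 19.6% of all genes, at −1.49, −0.95 and −1.02 (adjusted p = 0.148). With replicate 1 left out throughout, IER3 was at 3.50 under TNFalpha and −0.98 in cotreated cells. It was then called higher and lower, where 0.338% and 18.5% of all genes were called in either direction. IER5L was at 4.31 under heteronemin and 4.54 in cotreated cells in replicate 1, and between −0.031 and 0.082 in replicates 2 and 3. IER3 thus had TNFalpha values far above those of IER2 and IER5, and IER5L was high in replicate 1 alone of the 3.

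Of the 11 genes of the ZFP36 family and its decay partners 2 rose and 2 fell under heteronemin. ZFP36L2, a ZFP36 paralogue of lymphoid development, fell to −0.86 ± 0.46 (adjusted p = 0.0133), and the AU-rich element binder ELAVL1, which stabilises its targets, to −0.41 ± 0.17 (adjusted p = 0.0475). With replicate 1 left out throughout, ZFP36L2 was at −0.60 and ELAVL1 at −0.32. The decapping factors DCP1A and DCP2 rose by 0.39 ± 0.16 (adjusted p = 0.0207) and 0.19 ± 0.02 (adjusted p = 0.0443). In cotreated cells DCP1A and DCP2 rose by 0.47 ± 0.18 and 0.33 ± 0.08, and ZFP36L2 and the decay nuclease ZC3H12A fell to −0.70 ± 0.14 and −0.61 ± 0.33. ZFP36L1 was at 0.12 ± 0.07 and 0.083 ± 0.021 and did not pass (adjusted p = 0.470 and 0.577).

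Of 18 measured transcripts with AU-rich elements that are listed as ZFP36 targets limma called 0 in any comparison. Their median was 0.22 under TNFalpha, 0.085 under heteronemin and −0.034 in cotreated cells. Under TNFalpha the median was 0.031 in replicate 1 and 0.44 and 0.27 in replicates 2 and 3, and 18 of 18 means were above 0, against 9083 of 18334 over all genes. The list holds chemokine and other genes known as NF-kB targets that TNFalpha induces, CXCL1 and IER3 among them, and the part of ZFP36 in these values was not tested. With that replicate left out throughout, 8 rose under TNFalpha, 7 rose under heteronemin, and 2 rose and 5 fell in cotreated cells.

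Of 7 genes of SRF, its ternary complex partners and its coactivators 0 were called under heteronemin and 1 in cotreated cells. SRF fell to −0.51 ± 0.13 in cotreated cells (adjusted p = 0.00349) and was at −0.26 ± 0.14 under heteronemin (adjusted p = 0.0545), below 0 in all 6 values. Of 12 AP-1 and other early factors 4 rose under heteronemin (JUN, ATF3, BTG1 and JUND) and 2 in cotreated cells (JUN and ATF3), none fell, and JUN was at 2.90 ± 1.06 under heteronemin. With replicate 1 left out throughout, JUN was at 2.36 under heteronemin. In cotreated cells JUN was at 2.64 ± 1.76, and at 1.63 without replicate 1 (adjusted p = 0.00312). Of 30 further immediate-early genes 3 rose and 2 fell under heteronemin, and 2 rose and 3 fell in cotreated cells. The MAPK phosphatase gene DUSP10 rose by 1.00 ± 0.06 (adjusted p = 0.00183) and 0.70 ± 0.22 (adjusted p = 0.00548), and ID1, an inhibitor of DNA binding, fell to −0.69 ± 0.36 and −0.70 ± 0.17.

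Of 9 heat shock genes HSPH1 alone rose in both heteronemin comparisons, by 0.31 ± 0.09 and 0.35 ± 0.10, and the list's median under heteronemin was 0.27, −0.052 and −0.059 in replicates 1 to 3. Of 8 reference genes and of 7 genes linked to KLF2 and KLF4 in endothelium 0 were called in any comparison. Of 9 markers of other blood cells CD3D, a T cell receptor subunit, fell to −0.37 ± 0.07 and −0.41 ± 0.12, and the others did not pass. Leaving out replicate 1 throughout gave 0 higher and 3 lower under heteronemin and 1 higher and 3 lower in cotreated cells among the EGR and NAB genes. It gave 4 and 3, then 4 and 4, among the ZFP36 and decay genes, and 6 and 1, then 6 and 2, among the AP-1 and other early factors. It gave 6 and 8, then 5 and 11, among the 30 further immediate-early genes, and 0 and 1, then 0 and 2, among the SRF genes. Of the reference genes it called 0 under heteronemin and 1 in each direction in cotreated cells, and of the endothelial genes 1 as higher in each.

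The 3 genes whose 9 averaged values followed those of KLF6 most closely were ZNF787 (Pearson's r = 0.935), CDT1 (r = 0.932) and PRR5 (r = 0.924). These are descriptions over 9 values that share treatments, and the 3 genes had small means, between −0.084 and 0.17. None of the members was among them.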

How the data were processed

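Per the labels' protocols, total RNA was extracted with Trizol, 700 ng per sample was labelled with Cy5 or Cy3, and 2 RNAs were hybridised per array. The deposited values are log2 ratios, treated here as the authors' normalized values. The submitters' processing notes name limma; no source used here gives its role or version, or how arrays were background-corrected and normalized. Array medians lay between −0.0145 and 0.0669, so ratios were centred; scaling between arrays stays unknown. Intensities were not used here, and precision is limited by how many arrays there are.

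Of 45220 features, 31332 had 1 gene and gave 18334 genes (93 features had several genes, 13795 had none). Features were averaged per gene, then both arrays of a replicate. The 9 values entered lmFit of limma 3.58.1 (R 4.3.3; 1 mean per comparison, pooled spread, eBayes, two-sided), with Benjamini-Hochberg adjustment over all genes and calls at an adjusted p under 0.05. The contrast of the 2 heteronemin comparisons was tested too. The script was tested on simulated data. P-values measure the spread between replicates that the design text calls biological.

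Deviations of same-numbered replicates from their comparison's mean correlated at 0.781, 0.626 and 0.622 between the 2 heteronemin comparisons. With TNFalpha against untreated the correlations ran between −0.326 and 0.031. Deviations from a mean cancel over the replicates of a comparison, so these correlations are not independent of each other. Replicate 1 had the widest spread over genes in both heteronemin comparisons, so it weighs on all of them. Whether the numbers pair these comparisons apart from replicate 1 was not tested.

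The members, lists and tests were chosen with earlier results of these data known. Every member is named; from each list up to 4 called genes per comparison with the largest means, the remaining EGR, NR4A, IER and ZFP36 genes, and 3 genes most correlated with each called member. CXCL1, NFKBIA, MYC, DUSP2 and KLF1 throughout, and SRF under heteronemin, were named after their values were seen.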

Additional observations from a re-analysis of the deposited data

How the results depend on the processing

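Limits: 3 replicates per comparison, no intensities, and a replicate 1 that stood apart. Alternatives covered the replicate block, left-out replicates, the prior, comparisons fitted alone, centring and scaling of arrays, the median of features, and 18 unaveraged arrays with a dye term; features tested singly and the replicate block over the heteronemin comparisons alone were added after the data were seen. Of 475 alternative values of members, 428 kept direction and side of the threshold. Most of these belong to members without a call, so this count says little about the KLF6 calls. A call was lost in 11 of the 475 values, each time a KLF6 call under heteronemin or in cotreated cells. KLF6 kept its direction in all of its alternative values.

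Members called under heteronemin were 1, and 2 with the replicate block, 2 with 18 arrays, 3 with the block over the heteronemin comparisons alone, 0 with the trended prior, 0 fitted alone, and 0 to 3 with replicates left out. In cotreated cells they were 1, and 2, 2, 3, 0 and 0 in the same order, and 0 to 4 with replicates left out. Of all genes the first fit called 4.87% and 6.55% in these comparisons, and the replicate block 2.77% and 4.04% as higher. The block over the heteronemin comparisons alone called 17.2% and 20.3%, and leaving out replicate 1 throughout 13.9% and 18.5%. Shares for the other settings are not given here, so their counts cannot be set against all genes. Under TNFalpha they were 0, and 0 to 1 with replicates left out. For the contrast of the 2 heteronemin comparisons 0 members were called in every setting.

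Members without a call changed sign with replicates left out. EGR1 ran from −0.94 to 0.022 under heteronemin and from −0.64 to 0.55 in cotreated cells, where it was at 0.13 with scaled arrays. The EGR3 contrast ran from −0.68 to 0.17, and KLF4 under heteronemin from −0.0255 to 0.088. IER2 ran from −0.013 to 0.034, −0.102 to 0.039 and −0.072 to 0.033 in the TNFalpha, heteronemin and cotreated comparisons, and IER5 from −0.032 to 0.107, −0.031 to 0.123 and −0.052 to 0.145. The cause was not tested.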
